A study of Mus musculus with 2 samples.

Results

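The genes described here encode proteins of the red cell surface: Slc4a1 (band 3), Gypc (glycophorin C), Rhag, Rhd, Kel, Xk, Icam4, Ermap and Aqp1. These 9 genes were listed by name, and a called Gata1 position was assigned to a gene when its midpoint fell inside it or at most 50 kb beyond an end. The 9 genes are among 21792 protein-coding genes of the mouse gene table, and their windows held 12 of the 4135 called positions (peaks). The study mapped Gata1 by chromatin immunoprecipitation and sequencing (ChIP-seq) in cells made from mouse embryonic stem cells. The cells were harvested from embryoid bodies at day 5 of differentiation towards blood and sorted as positive for both the Runx1-ires-GFP and the Gata1::mCherry reporter, a population that the series calls primitive erythroid. There was 1 Gata1 ChIP library (rabbit anti-Gata1 antibody) and 1 input chromatin library from cells of the same kind, whose antibody label names a rabbit IgG. Cells pooled from several sorts entered each library, and no library was repeated. The sort depends on the reporters alone, and the labelled cell type could not be set against marker genes because RNA was not measured here.

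Gata1 is a zinc finger transcription factor that binds DNA containing the letters GATA and directs the formation of red cells, megakaryocytes and mast cells. The red cell surface is built around band 3, the exchanger of chloride and bicarbonate, which is held together with the Rh proteins and the glycophorins in complexes that are anchored to the spectrin skeleton. In humans several of these proteins carry blood group antigens: Diego on band 3, Gerbich on glycophorin C, Kell on KEL, Kx on XK, Landsteiner-Wiener on ICAM4, Scianna on ERMAP and Colton on AQP1.

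Gata1 peaks were called at 6 of the 9 genes, against 32.0% of all protein-coding genes with the same 50 kb window. Slc4a1 had 4 peaks, Gypc, Rhag and Icam4 had 2 each, and Rhd and Kel had 1 each. Xk, Ermap and Aqp1 had none. The share of 66.7% has a 95% Wilson interval of 35.4 to 87.9%, which covers counting error only and treats the genes as independent. The median was 1 peak per gene for the 9 genes and 0 for all protein-coding genes, whose highest count was 8. Counts of at least 2 peaks, as at Slc4a1, Gypc, Rhag and Icam4, were found for 10.9% of all protein-coding genes, and counts of at least 4, as at Slc4a1, for 1.04%. No test of these counts is given, because the genes were listed with results of these data known. The deposited list holds positions without a height, a score or a p-value, so each site is called or not called, the read depth is unknown, and binding below the threshold, which is not stated, would not appear.

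**Figure D1:**
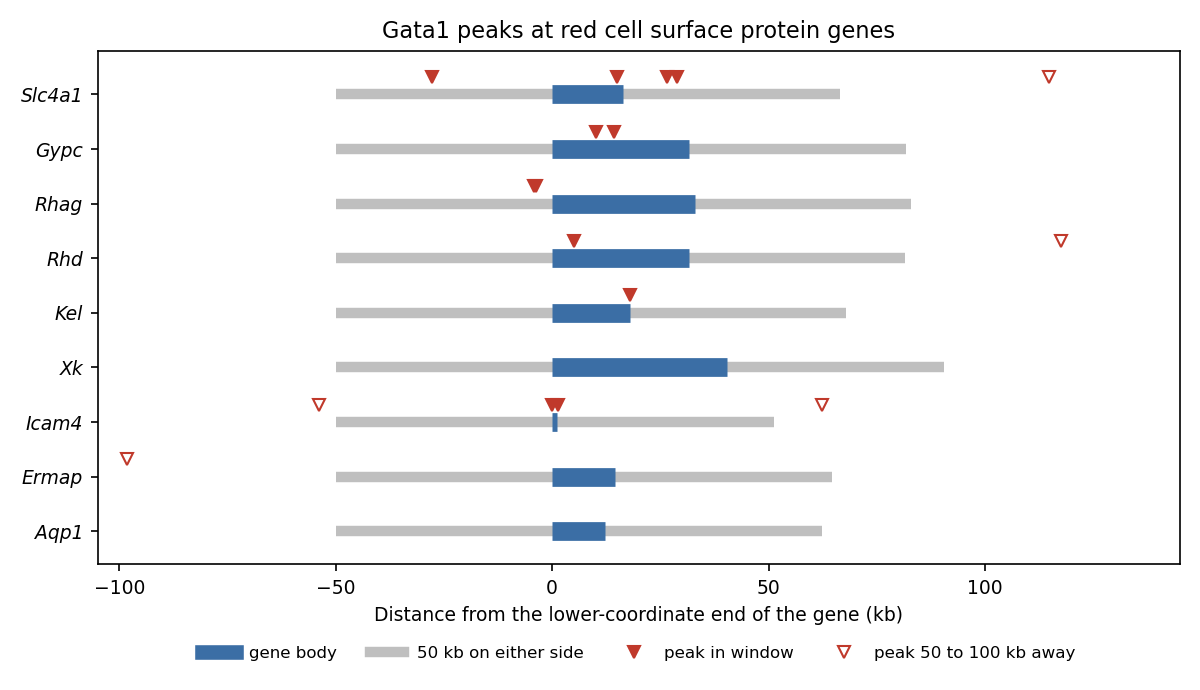
Positions of Gata1 peak midpoints (triangles) along the 9 genes. The x axis is the distance in kb from the end of the gene with the lower coordinate, blue bars are gene bodies, grey bars the 50 kb on either side, and open triangles are peaks 50 to 100 kb away; filled triangles stand at 6 genes, and the 2 of Rhag nearly coincide at this scale.

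Of the 12 peaks, 4 lay inside their gene by midpoint and 3 within 1 kb of an end. Another 2 lay between 1 and 10 kb away and 3 between 10 and 50 kb away. In percent, 33.3% were inside the gene and 25.0% within 1 kb of it. Over all 10432 pairs of a protein-coding gene and a peak in its 50 kb window, 23.8% were inside the gene, 4.84% within 1 kb, 14.5% between 1 and 10 kb and 56.9% between 10 and 50 kb. A peak can enter several windows, so these pairs are not separate sites. For 11 of the 12 peaks the named gene was the nearest protein-coding gene, and the exception was the peak in Ubtf beside Slc4a1. The same share over all 10432 pairs, which came from 3781 peaks, is not given here.

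At Kel and Icam4 the called interval covered the promoter itself, and the DNA is shown to place the GATA words in it. Kel encodes the Kell glycoprotein, an endothelin-processing metalloprotease, and Icam4 an adhesion protein of the immunoglobulin superfamily that binds integrins. The sequences below are the 250 bases before the RefSeq start site, from the GRCm38.p6 table, written 5′ to 3′ in the direction of the gene. Capitals mark 4 words on either strand: AGATAA, the word TGATAA that begins with T instead, and the forms of each that end in G, namely AGATAG and the word TGATAG. On the opposite strand AGATAA reads TTATCT and the word TGATAA reads TTATCA. The third sequence precedes the noncoding gene Gm34253, whose start lies under the nearer of the 2 peaks above the band 3 gene. The intervals are chr6:41704326-41704575 on the minus strand for Kel, chr9:21029182-21029431 on the plus strand for Icam4 and chr11:102375219-102375468 on the plus strand for Gm34253.
Kel: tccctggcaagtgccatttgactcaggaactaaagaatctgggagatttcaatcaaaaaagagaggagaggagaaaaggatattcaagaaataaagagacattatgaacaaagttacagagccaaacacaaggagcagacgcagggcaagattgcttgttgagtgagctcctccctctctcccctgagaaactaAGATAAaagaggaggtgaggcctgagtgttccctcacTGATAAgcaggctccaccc
Icam4: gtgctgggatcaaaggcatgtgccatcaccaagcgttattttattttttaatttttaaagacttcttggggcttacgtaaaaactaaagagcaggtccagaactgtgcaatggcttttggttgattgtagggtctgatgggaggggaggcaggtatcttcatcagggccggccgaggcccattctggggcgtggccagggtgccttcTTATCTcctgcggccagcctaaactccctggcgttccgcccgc
Gm34253: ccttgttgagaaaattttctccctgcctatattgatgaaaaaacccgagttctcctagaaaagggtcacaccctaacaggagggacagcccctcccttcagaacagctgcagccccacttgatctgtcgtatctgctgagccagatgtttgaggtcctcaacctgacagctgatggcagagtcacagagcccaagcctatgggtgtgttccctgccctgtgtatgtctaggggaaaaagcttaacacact

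The Kel gene lies on chromosome 6 at 41686329 to 41704334 (mm10), and its peak at 41704149 to 41704548 had its midpoint 23 bases upstream of the listed start site. The interval covered 223 of the 250 printed bases and both GATA words. AGATAA ended 51 bases before the start site, with its centre 30.5 bases from the peak midpoint. TGATAA ended 14 bases before the start site, with its centre 6.5 bases from the midpoint. No other protein-coding gene lay closer to this peak than Llcfc1, at 18.6 kb.

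Icam4, at 21029432 to 21030596 on chromosome 9, is only 1.17 kb long and was flanked by its 2 peaks. The first, at 21029216 to 21029615, had its midpoint 17 bases upstream of the start site and held the printed AGATAA word, whose centre was 23.5 bases from the midpoint. The second, at 21030660 to 21031059, lay 0.263 kb beyond the higher-coordinate end of the gene and 1.43 kb downstream of its start site. The midpoints were 1.44 kb apart. Icam4 sits between the related adhesion genes Icam1 and Icam5: the first peak was 0.601 kb from Icam1 and the second 1.18 kb from Icam5, so the positions alone do not assign these peaks to Icam4.

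Slc4a1, at 102348820 to 102365281 on chromosome 11, had the most peaks of the 9 genes. The peak at 102363638 to 102364037 was inside the gene, 1.44 kb from its higher-coordinate end. The next, at 102375158 to 102375557, lay 10.1 kb above that end and 0.112 kb from the start site of Gm34253, and its interval contained the whole printed Gm34253 sequence, which had no capitals because it held 0 of the GATA words. The GATA letters alone occurred 1 time in the 300-base window around that start site. The rest of this interval was not searched. DNA under peaks outside the listed promoters was not searched either, because no sequence of it was available. The third peak, at 102377476 to 102377875, lay 12.4 kb above Slc4a1 and inside Gm34253, 2.32 kb from the second. The fourth, at 102320763 to 102321162, was 27.9 kb below the gene in Ubtf, which encodes a transcription factor of ribosomal RNA genes, with its midpoint 0.100 kb from a listed Ubtf start site. Outside the window, a further peak 98.3 kb above Slc4a1 fell in Itga2b, the platelet integrin gene.

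Gypc, on chromosome 18 at 32528320 to 32560034, carried both of its peaks inside the gene. Glycophorin C links the membrane to protein 4.1 of the skeleton. The peaks at 32538346 to 32538745 and 32542376 to 32542775 were 10.2 and 14.3 kb from the lower-coordinate end and 4.03 kb apart. No other protein-coding gene reached into the 50 kb window of Gypc, and the nearest to either peak, Gm35060, was 75.6 kb away.

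The Rh genes differed in where their peaks stood. Rhag encodes the Rh-associated glycoprotein, an ammonium and gas channel subunit, and lies on chromosome 17 at 40811099 to 40844094. Its peaks, at 40806672 to 40807071 and 40807195 to 40807594, were both upstream, with midpoints 4.28 and 3.75 kb before the listed start site. Their midpoints were 523 bases apart, and 6 of the 4113 neighbouring pairs in the whole list, this one included, were as close, so they may be separate sites or parts of 1 region. Rhd, the mouse Rh blood group gene, at 134864536 to 134896172 on chromosome 4, had its 1 peak at 134869373 to 134869772, inside the gene and 5.04 kb downstream of the start site. The next peak near Rhd was 85.9 kb above the gene and nearest to Syf2.

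Xk, Ermap and Aqp1 had 0 peaks in their windows. Xk encodes the membrane protein that is disulfide-bonded to Kell, and the peak nearest to it was 1009 kb away, next to Slc38a5. Xk is on the X chromosome, where 7.89% of 963 protein-coding genes had a peak in their 50 kb window. Ermap encodes an erythroid protein of the butyrophilin family, and its nearest peak was 98.2 kb away in the noncoding Gm35510, closer to Slc2a1, the glucose transporter gene, at 31.5 kb. Aqp1 encodes the water channel of the red cell, and its nearest peak was 261 kb away. At the average density of its chromosome a window of this size would hold 0.0352 peaks at Xk, 0.215 at Ermap and 0.164 at Aqp1. A count of 0 allows up to 3 peaks per window, or 21.4, 26.2 and 26.7 peaks per Mb, so these windows are too short to show a density below that of the genome.

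**Figure D2:**
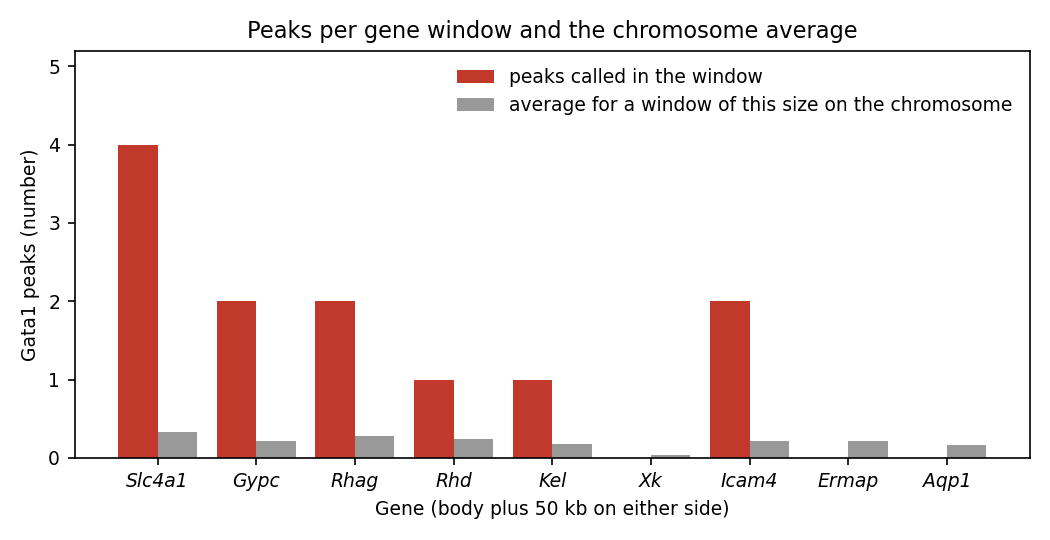
Peaks called in each gene's window (red bars, number) beside the average for a window of that size on the same chromosome (grey bars). Slc4a1 had 4 peaks against an average of 0.335, and the 3 genes without a peak have averages of at most 0.215.

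The 9 windows together covered 1.10 Mb and held 10.9 peaks per Mb (95% exact Poisson interval 5.64 to 19.1). The windows of all protein-coding genes together held 2.25 peaks per Mb, and the annotated spans of the nuclear chromosomes held 1.55. At the density of each gene's own chromosome, the 9 windows would have held 1.86 peaks in all. Without Slc4a1 the density was 8.14 peaks per Mb. Within 10 kb the 9 genes held 9 peaks, or 23.7 per Mb. The interval covers counting error only, and neighbouring peaks are not independent.

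Near the threshold of the rule, the farthest peak inside 50 kb was the one in Ubtf at 27.9 kb from Slc4a1. The nearest outside were at 53.9 kb from Icam4, in S1pr2, and at 61.2 kb from Icam4, in Raver1 and the noncoding Gm38431. With 100 kb, Ermap joined and 7 of 9 genes had a peak, against 43.9% of all protein-coding genes. Within 10 kb it was the same count of 6, against 16.6%. Within 1 kb 5 genes had a peak (Slc4a1, Gypc, Rhd, Kel and Icam4), against 11.3%. Counting only midpoints in the gene body, Slc4a1, Gypc and Rhd had a peak, 3 of 9, against 9.34%. The Kel and Icam4 midpoints lay 14 and 17 bases outside their genes, and the called intervals reached into both genes.

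**Figure D3:**
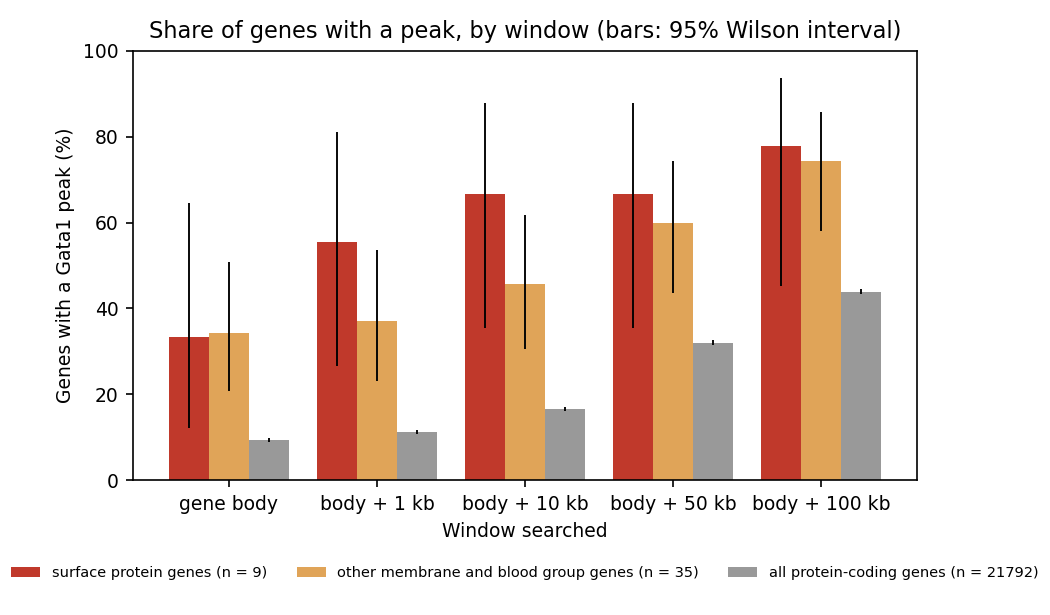
Percent of genes with at least 1 Gata1 peak by window, for the 9 surface protein genes (red), 35 other membrane and blood group genes (orange) and all 21792 protein-coding genes (grey); lines are 95% Wilson intervals. The share at 10 kb was 66.7% in red, 45.7% in orange and 16.6% in grey.

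Promoter windows of 300 bases, 250 before to 50 after the start site, were listed for 7 of the 9 genes: Rhag, Rhd, Kel, Xk, Icam4, Ermap and Aqp1. At least 1 of the 4 GATA words was present in 5 of the 7 (Rhag, Rhd, Kel, Icam4 and Ermap). Such a word was present in 57.6% of the 309 promoters that contained a peak midpoint and in 29.8% of all 32851 listed promoters. The listed promoters include those of noncoding genes such as Gm34253, whereas the 7 all belong to protein-coding genes. The words in the 5 promoters all lay close before the listed start site, ending 14 to 62 bases upstream. The gene table begins Rhag at 40811099, ahead of its listed start site at 40811149. The Rhag word, at 40811118 to 40811123, therefore lies inside the gene as annotated. Peak midpoints lay in the Kel and Icam4 windows, 2 of 7, against 0.941% of all listed promoters. The Rhag, Rhd and Ermap promoters thus held a word without a called peak over it: TGATAA 26 bases before the Rhag start site, AGATAA 38 bases before that of Rhd and TGATAA 62 bases before that of Ermap. This was the usual state: of the 9778 listed promoters with such a word, only 178 contained a peak midpoint. The Xk and Aqp1 windows held 0 of these words, and also 0 occurrences of the letters GATA alone, which were present in the same 5 of 7 windows and in 57.9% of all listed promoters. GC content was 78.0% in the Xk window and 62.7% in the Aqp1 window, against 40.7 to 54.3% in the other 5. The median was 52.7% over all listed promoters and 59.7% over those that contained a peak midpoint. Base composition changes how often an AT-rich word occurs, and its part in these counts was not tested.

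A composite of CTG, a spacer of 7 to 9 bases and GATAA, the arrangement known for joint binding of Gata1 and the Tal1 complex, was present in 4 of the 7 promoters, against 11.0% of the promoters with a peak midpoint and 2.35% of all listed promoters. In Kel, Icam4, Rhag and Ermap alike the spacer had 9 bases, and a spacer of exactly 9, a length singled out after it was seen, was present in 0.861% of all listed promoters. The composites contain the GATA words already counted and are shown to compare the spacer letters, with the shared ends in capitals and each written 5′ to 3′ on the strand that reads GATAA. They lie at chr6:41704376-41704392 (minus strand, Kel), chr9:21029389-21029405 (minus strand, Icam4), chr17:40811118-40811134 (minus strand, Rhag) and chr4:119190046-119190062 (plus strand, Ermap).
Kel: CTGagaaactaaGATAA
Icam4: CTGgccgcaggaGATAA
Rhag: CTGtatagtgttGATAA
Ermap: CTGcccacccctGATAA
The Kel and Icam4 composites were inside the called intervals, with centres 36 and 18 bases from the peak midpoints. Those of Rhag and Ermap were in none. Of the 772 listed promoters with the composite, 34 (4.40%) contained a peak midpoint, against 0.857% of the promoters without it. Among the 9778 promoters with any of the 4 GATA words, 178 contained one. The composite includes GATAA, so the first comparison does not separate its arrangement from the presence of a GATA word. The word CCACCC, a core of sites for Krüppel-like factors such as Klf1, was present in 5 of the 7 windows (Rhag, Kel, Xk, Ermap and Aqp1). It was present in 39.8% of the promoters with a peak midpoint and in 31.5% of all listed promoters. In Ermap it lies in the spacer of the composite, on the same strand. CANNTG, the E-box, was present in 4 of the 7 (Rhd, Kel, Icam4 and Aqp1), against 60.5% of the promoters with a peak midpoint and 72.3% of all listed promoters. CCACCC is GC-rich, and the Xk and Aqp1 windows, the most GC-rich of the 7, held 2 matches each. The part of base composition in this count was not tested. A match is a string of letters, and binding at it was not measured beyond the called interval.

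**Figure D4:**
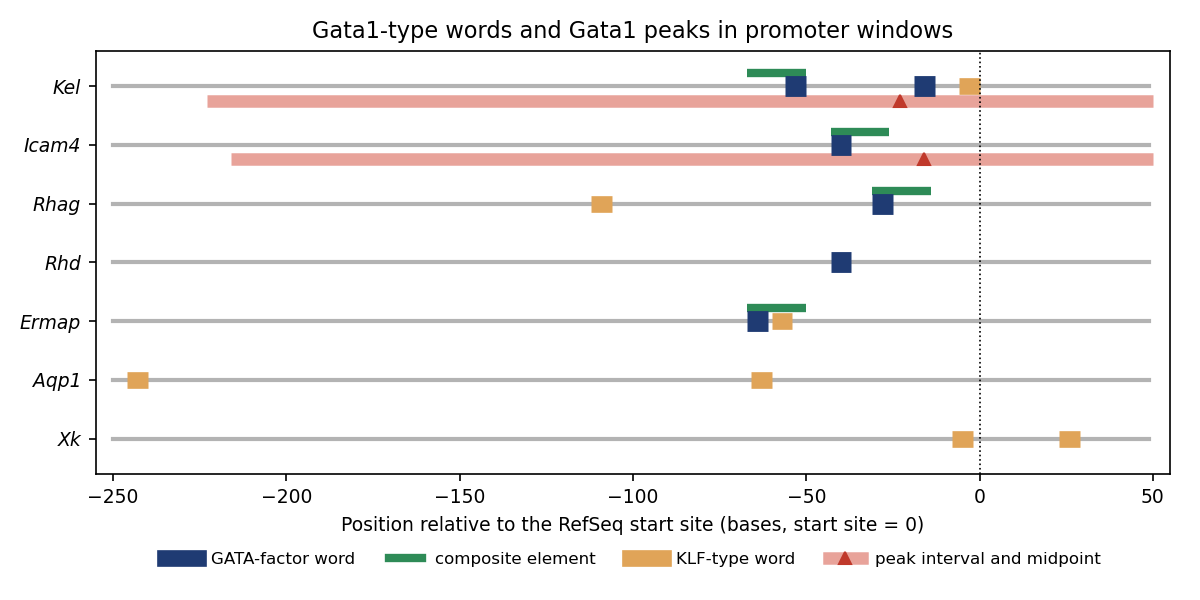
Promoter windows of the 7 genes with a listed sequence, in bases from the RefSeq start site. Blue blocks are the 4 GATA words, green lines the composites, orange blocks the Krüppel-like factor (KLF) word, and pink bars with a triangle the called interval and its midpoint; both genes with a pink bar, Kel and Icam4, have a green line inside it.

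The other genes of the red cell membrane and of blood groups were taken from a list of 36, of which 35 matched the gene table. A peak lay within 50 kb of 21 of the 35 (60.0%), within 10 kb of 16 (45.7%) and within 1 kb of 13 (37.1%). The shares over all protein-coding genes were 32.0%, 16.6% and 11.3%. The median within 50 kb was 1 peak per gene, as for the 9 genes. Kcnn4, encoding the calcium-activated Gardos potassium channel, had 3 peaks inside the gene and 4 within 50 kb.

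Among the proteins that tie band 3 to the skeleton, Ank1 (ankyrin) had 2 peaks inside the gene and Epb42 (protein 4.2) had 1. Among transporters and channels, Abcg2 (the Junior antigen in humans) had 2 inside the gene, Slc29a1 (the nucleoside transporter that carries the Augustine antigen in humans) had 1 inside and 1 at 1.56 kb, in Mymx, and Slc14a1 (the urea transporter that carries the Kidd antigens in humans) had 1 inside. Piezo1, a mechanically gated channel, had 1 inside and 1 at 6.49 kb, in Rnf166, and Slc44a2, a choline transporter-like gene, had 1 at 7.09 kb that was nearer to Ap1m2. Of carriers of other human blood groups, Smim1 (Vel), Cd44 (Indian) and Bsg (Ok) had 1 peak inside each gene, Art4 (Dombrock) had 1 at 0.160 kb, and Ackr1 (Duffy) had 1 at 2.49 kb. Cd59a, which encodes a complement inhibitor, had 1 at 8.84 kb, in the neighbouring A930018P22Rik. B3galnt1, the globoside synthase gene, had 1 inside and 1 at 0.003 kb. In all, 19 genes of the list had none within 10 kb, and 14 had none within 50 kb.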

How the data were processed

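Gata1 ChIP and input libraries were listed for sorted cells of embryoid bodies; the input library's data were not analysed here. The authors deposited 4135 peak positions of the ChIP library without header, score or height, each 400 bp wide; the submitters' processing notes name Bowtie2 2.0.6, MACS2 2.0.10 and mm10. Settings, threshold, filters and any use of the control were not given in the sources used here, and read depth is unknown. Genes were placed with a GRCm38.p6 (mm10) RefSeq table, leaving out 340 entries below 3 Mb as scaffold coordinates. Midpoints in the gene or within 50 kb were counted, and promoter words were searched on both strands of RefSeq sequences (250 bases before to 50 after the start site). Opposite-strand windows matched after reverse complementing in 1839 of 1839 overlapping pairs. The members and lists were chosen with earlier results of these data known. All 9 members, listed genes with a peak within 10 kb, and genes holding or nearest to a member peak were named; other neighbours were chosen after their values were seen. Not every gene so named is reported here. No test was made, since 1 library has no replicate. Counting and word search were tested on simulated data. Alternatives were windows, overlap, nearest gene, runs of peaks and words. Python 3.11.15, numpy 2.4.6, pandas 2.3.3, scipy 1.17.1 and matplotlib 3.10.9 were used.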

Additional observations from a re-analysis of the deposited data

How the results depend on the processing

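The count of 6 genes with a peak was 5 to 7 with windows of 1, 10 and 100 kb, any overlap or the nearest protein-coding gene only. It was 3 with midpoints in the gene body alone, which the Kel and Icam4 midpoints missed by 14 and 17 bases. The 12 peaks were 11 with runs within 1 kb counted once, 9 within 10 kb and 17 within 100 kb. The density of 10.9 peaks per Mb was 23.7 with 10 kb windows, which exclude the emptier flanks by construction, and 8.14 to 12.5 with 100 kb windows, autosomal genes only or each gene left out. Of 7 promoters, 5 held 1 of the 4 words and 3 held AGATAA or AGATAG; the composite was in 0 with a spacer of 7, 0 with 8 and 4 with 9, and these single spacers were chosen after seeing the data. The other list had 21 genes within 50 kb, 16 within 10 kb and 13 within 1 kb. Of 12 peaks, 11 were nearest to their gene among protein-coding genes and 9 among genes of any kind, an alternative also chosen after seeing the data. A stricter peak threshold was not run because the list has no score. Depth could not be examined. No paired analysis was possible because there is 1 library and no test.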
